A study of Mus musculus with 11 samples.

Results

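The collagen genes of NIH/3T3, a long-established mouse embryonic fibroblast line, were followed across 4 genotypes in RNA-seq libraries. The members were the 44 of 21684 rows of the gene count table whose symbol is Col, a number, the letter a and a number. By class they were 11 fibrillar collagens, 6 basement membrane collagens, 9 FACITs (fibril-associated collagens with interrupted triple helices) and 18 others. All cells were grown and then kept 24 h without serum, which lets NIH/3T3 cells grow a primary cilium. There were 2 libraries of WT cells and 3 each of Xap5 KO, Nono KO and Sox5 KO cells, and the purpose the submitters gave was to find what a Xap5, Nono and Sox5 pathway controls at the transcript level. Xap5 is the gene with the mouse symbol Fam50a. The labels name neither separate clones nor separate cultures, so each knockout stands for the line so labelled, and the p-values measure the spread between libraries, which may be technical.

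Collagens are secreted proteins built of 3 chains wound into a triple helix, and each gene encodes a single chain. Fibrillar collagens such as types I, III and V assemble into the cables of connective tissue, type IV forms the sheet-like network of basement membranes, FACITs sit on fibril surfaces, and type VI forms beaded filaments around cells. Fibroblasts are the main source of types I, III, V and VI. Types II, IX, X and XI are best known from cartilage, where Sox9 with Sox5 and Sox6 drives genes of types II, IX and XI.

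The libraries held 30205878 to 43498383 counts, and the common coefficient of biological variation was 10.6%. Fam50a stood at 7.49 to 7.91 CPM (counts scaled to depth, on TMM-scaled library sizes) in Xap5 KO against 62.9 to 64.8 in WT, Nono at 27.6 to 34.0 in Nono KO against 351 to 357 in WT, and Sox5 at 12.6 to 13.9 in Sox5 KO against 45.9 to 49.7 in WT. Sox5 was also low in the other knockouts, at 11.9 to 15.02 CPM in Xap5 KO and 7.01 to 8.75 in Nono KO. Each knockout was called lower than WT for all 9 tested genes of the Y chromosome, whose summed level was 199 to 204 CPM in WT and 0 to 0.39 CPM in the knockouts, so the knockout lines differed from the WT line by more than the targeted genes, and genotype and line cannot be told apart. All 9 fibroblast markers were detected, but their level differed between the groups. They summed to 20040 to 20061 CPM in WT, with Xap5 KO at 13492 to 14390, Nono KO at 28353 to 29740 and Sox5 KO at 13322 to 14172. Fn1 was the largest part. In Xap5 KO, 3 of the 9 were called higher and 4 lower (23.2% and 22.3% of all tested genes). In Nono KO 6 were higher and 0 lower (23.5% and 25.1%), and in Sox5 KO 5 and 3 (30.6% and 30.3%). The 5 adipocyte and 5 epithelial markers stayed under 1 CPM in every library, as did 5 of 6 chondrocyte markers (all but Sox9), 3 of 6 osteoblast and 3 of 4 endothelial markers. Mitochondrial genes took 6.20% to 6.28% of counts in WT, with Xap5 KO at 7.89% to 10.3%, Nono KO at 7.10% to 7.98% and Sox5 KO at 6.06% to 6.92%. The 4 smooth muscle and myofibroblast markers summed to 154 to 164 CPM in WT, with Xap5 KO at 1652 to 2042, Nono KO at 2313 to 2816 and Sox5 KO at 2906 to 3257. Acta2 and Tagln made up nearly all of this sum and were called higher in all 3 knockouts. Myh11 was called in none, and Cnn1, at most 2.17 CPM, was called higher in Nono KO and lower in Sox5 KO. As Cnn1 stood at only 0.113 to 0.198 CPM in WT, its lower call rests on few counts. The 4 leukocyte markers summed to 2.07 to 2.38 CPM in WT, with Xap5 KO at 3.09 to 3.53, Nono KO at 8.78 to 13.2 and Sox5 KO at 3.48 to 3.90. Within this sum, Ptprc was called higher in Nono KO, at 6.00 to 7.31 CPM, and lower in Sox5 KO, where it was at 0. In WT it stood at only 0.0908 to 0.124 CPM, so the lower call rests on few counts. Lyz2 was called higher in Nono KO and Sox5 KO, and Cd68 was called in none. The part of these differences in the collagen results was not tested.

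Of the 44 members, 36 passed the filter on expression and 20 reached a mean of at least 10 CPM. The 8 that did not pass were Col6a4, Col6a6, Col9a1, Col9a2, Col19a1, Col25a1, and Col13a1 and Col26a1, both at 0 in every library. Per kilobase of transcript, the level over the 4 groups was highest for Col1a2 (1039.8 CPM per kb) and Col1a1 (498), the chains of type I collagen. Next came Col6a1 (316), Col3a1 (272), Col6a2 (156), Col5a2 (105) and Col6a3 (103). Then followed Col4a1 (88.96), Col16a1 (88.8), Col5a1 (78.4), Col4a2 (61.3) and Col4a5 (38.5). The cells thus carried the fibrillar, type VI and type IV collagen transcripts known from fibroblasts, and the lowest tested members stood at or under 0.1 CPM per kb. For 13 members, exons overlap those of another gene, on the same strand for 3 and on the opposite strand for 10, and the handling of strand is not given in the sources used here. Their counts are uncertain to that extent: they include Col3a1, Col5a1, Col10a1, Col15a1, and Col4a1 with Col4a2, which overlap each other.

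**Figure D1:**
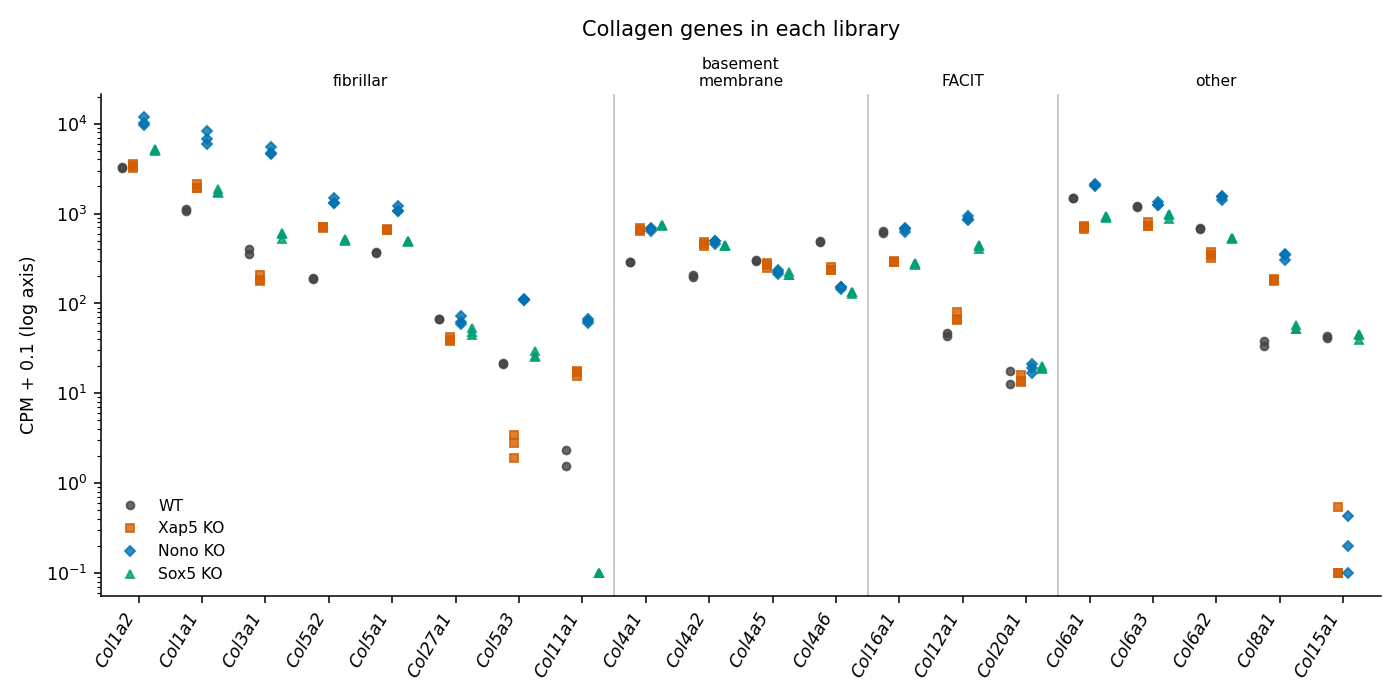
CPM + 0.1 on a log axis in each library for the 20 collagen genes with a mean of at least 10 CPM, by class; each point is a library, with 2 for WT and 3 for each knockout. The Nono KO libraries are the highest for most fibrillar genes, Col5a3 is low in Xap5 KO, Col11a1 is at 0 in Sox5 KO, and Col15a1 is near 0 in Xap5 KO and Nono KO.

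Collagen transcripts took a larger part of the counts in Nono KO than in the other groups. Their share of all gene counts was 1.15% ± 0.0211 in WT (SD, n = 2), with Xap5 KO at 1.13% ± 0.0588, Nono KO at 3.18% ± 0.305 and Sox5 KO at 1.302% ± 0.0265 (SD, n = 3 each). The lowest Nono KO library, at 2.95%, lay above the highest of the other groups, at 1.32%. Fibrillar collagens accounted for most of this, with 0.574% ± 0.0151 of counts in WT, where Xap5 KO had 0.717% ± 0.0469, Nono KO 2.39% ± 0.292 and Sox5 KO 0.836% ± 0.0335. Basement membrane collagens differed least between groups in proportion, at 0.137% ± 0.000905 in WT, with Xap5 KO at 0.167% ± 0.00602, Nono KO at 0.145% ± 0.00495 and Sox5 KO at 0.1496% ± 0.00288. The remaining non-FACIT collagens, mostly type VI, went from 0.368% ± 0.00547 in WT to 0.205% ± 0.0041 in Xap5 KO, 0.244% ± 0.00897 in Sox5 KO and 0.497% ± 0.0112 in Nono KO. FACITs took 0.0732% ± 0.00148 in WT, with Xap5 KO at 0.0387% ± 0.00237, Nono KO at 0.1496% ± 0.00796 and Sox5 KO at 0.0713% ± 0.0014. These shares are a description with no test, and in bulk RNA fewer cells of a kind and less RNA per cell cannot be told apart.

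**Figure D2:**
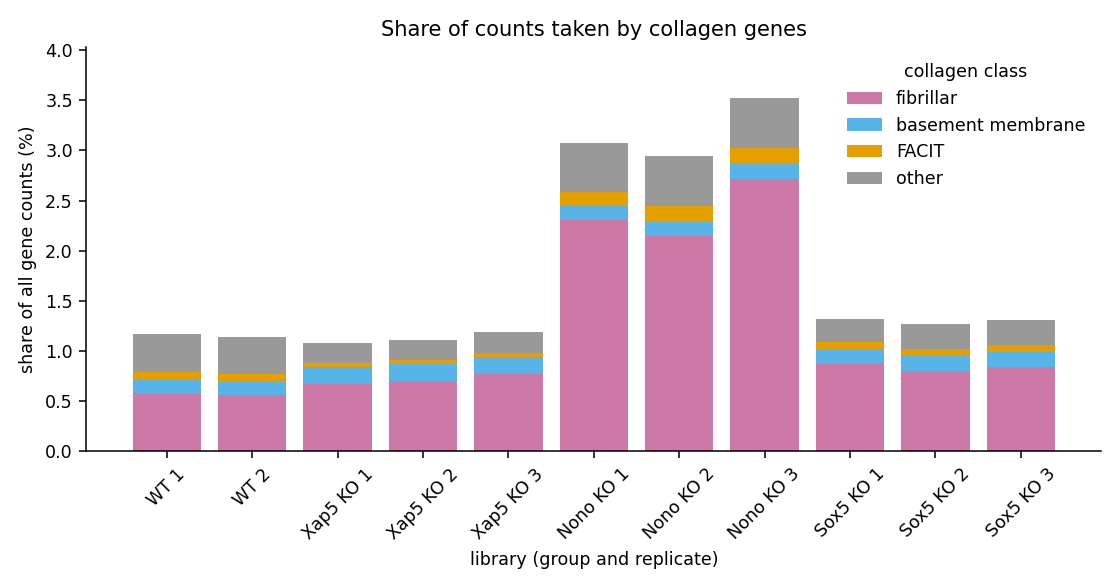
Percent of all gene counts taken by the 44 collagen genes in each library, stacked by class. The 3 Nono KO libraries reach 2.95% to 3.53%, and the other 8 libraries lie between 1.08% and 1.32%.

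Each knockout was then compared with WT, gene by gene. In Xap5 KO, 8 of the 36 tested members were called higher than WT, where 23.2% of all tested genes were, and 15 were called lower, against 22.3% of all genes. In Nono KO, 14 were called higher (23.5% of all tested genes) and 5 lower (25.1%). In Sox5 KO, 15 were called higher (30.6%) and 12 lower (30.3%). Called at an adjusted p under 0.05 and changed at least 2-fold were 5 members higher and 9 lower in Xap5 KO (5.67% and 4.61% of all genes), 13 higher and 4 lower in Nono KO (6.5% and 4.68%), and 6 higher and 7 lower in Sox5 KO (8.3% and 8.87%). The median log2 fold change of the tested members was -0.26 in Xap5 KO, then 0.36 in Nono KO and -0.13 in Sox5 KO, beside 0.00, -0.02 and -0.01 over all tested genes. With genes at the floor of 3 counts set to their bound, the medians were -0.26, 0.32 and 0.02, so that in Sox5 KO the sign depends on how absent genes are treated. Among the 20 members with a mean of at least 10 CPM, 8 were higher and 10 lower in Xap5 KO, 13 and 3 in Nono KO, and 11 and 8 in Sox5 KO.

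**Figure D3:**
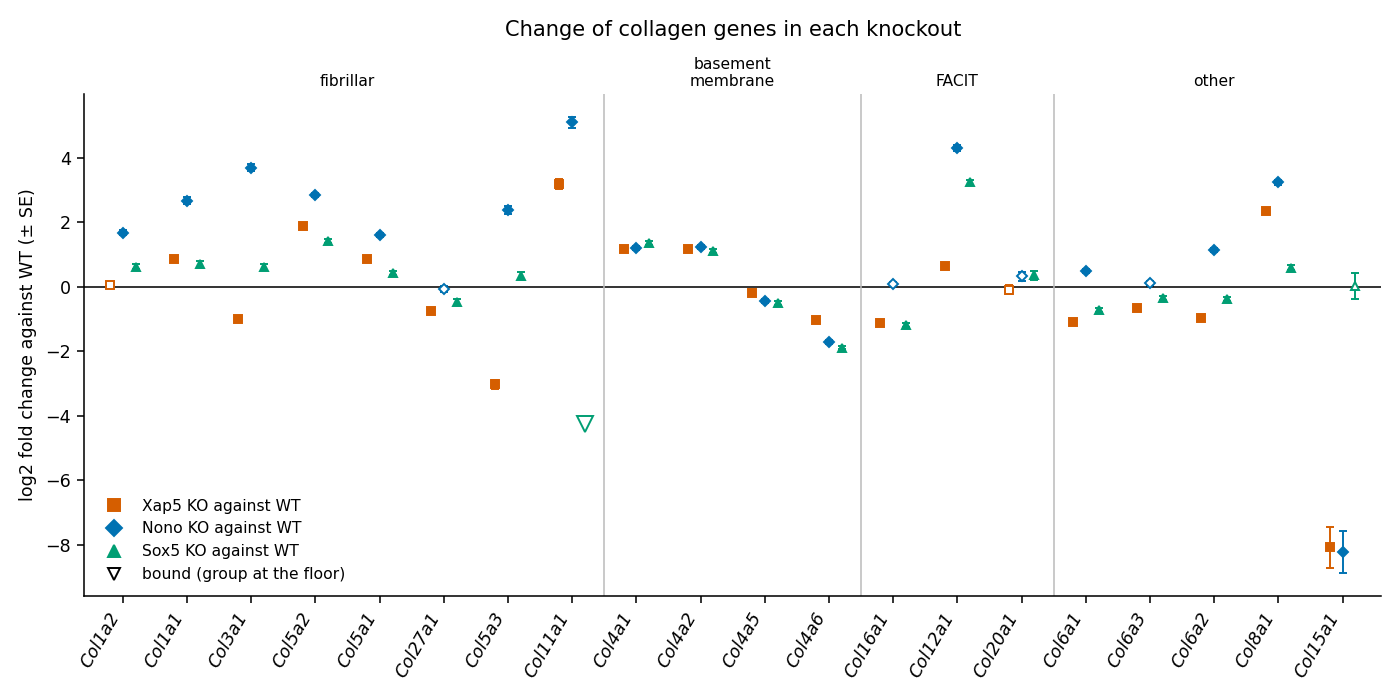
Log2 fold change against WT in each knockout, with an SE worked back from the F test, for the 20 collagen genes with a mean of at least 10 CPM. Filled symbols were called at an adjusted p under 0.05, and open ones were not. The open triangle is a bound for Col11a1, which was at 0 in every Sox5 KO library. Col4a1 and Col4a2 lie close together in all 3 knockouts, while Col3a1 and Col5a3 lie below 0 in Xap5 KO and above 0 in the other knockouts.

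Type I collagen, the most abundant fibrillar collagen, is normally built of a pair of chains from Col1a1 and a single chain from Col1a2. Col1a2 (ENSMUSG00000029661) stood at 3293 and 3251 CPM in WT, while Xap5 KO had 3218, 3361 and 3558, Nono KO 10069, 9608 and 11907 and Sox5 KO 5203, 4939 and 5051. Col1a1 (ENSMUSG00000001506) stood at 1124 and 1055 CPM in WT, while Xap5 KO had 1913, 1916 and 2135, Nono KO 6735, 6002 and 8182 and Sox5 KO 1881, 1675 and 1748. Both genes were highest in all 3 Nono KO libraries, and Col1a2 in Xap5 KO overlapped WT. Against WT, the log2 fold change of Col1a1 was 0.87 (SE 0.10, adjusted p = 5.75e-06) in Xap5 KO, 2.68 (SE 0.11, adjusted p = 2.14e-11) in Nono KO and 0.70 (SE 0.10, adjusted p = 2.64e-05) in Sox5 KO. That of Col1a2 was 0.05 (SE 0.077, adjusted p = 0.662) in Xap5 KO, which did not pass the test, 1.69 (SE 0.082, adjusted p = 3.77e-13) in Nono KO and 0.63 (SE 0.078, adjusted p = 5.13e-07) in Sox5 KO. The 2 chains did not change by the same factor, and the ratio of Col1a1 to Col1a2 per kilobase was 0.3003 ± 0.0107 in WT (SD, n = 2), with Xap5 KO at 0.53 ± 0.0144, Nono KO at 0.595 ± 0.0289 and Sox5 KO at 0.315 ± 0.0103 (SD, n = 3 each). The ratios of Xap5 KO and Nono KO did not overlap those of WT; an exact permutation test, two-sided, of 3 libraries against 2 cannot go below p = 0.2, which these 2 comparisons gave, and Sox5 KO gave p = 0.4.

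Col3a1 (ENSMUSG00000026043), the chain of type III collagen, which shares fibrils with type I in extensible tissue, moved in opposite directions in the knockouts. It stood at 403 and 355 CPM in WT, while Xap5 KO had 181, 178 and 209, Nono KO 4688, 4554 and 5469 and Sox5 KO 609, 525 and 598. Every Xap5 KO library lay below WT, every Nono KO library lay above all other groups, with a mean 12.9-fold that of WT, and every Sox5 KO library lay between WT and Nono KO. The log2 fold change was -1.003 (SE 0.092, adjusted p = 1.22e-07) in Xap5 KO, 3.69 (SE 0.11, adjusted p = 2.92e-14) in Nono KO and 0.61 (SE 0.094, adjusted p = 2.73e-05) in Sox5 KO. Xap5 KO and Nono KO differed from each other by -4.70 (SE 0.10, adjusted p = 4.99e-16). Per kilobase, Col3a1 relative to Col1a1 was 0.371 ± 0.017 in WT, with Xap5 KO at 0.101 ± 0.00286, Nono KO at 0.754 ± 0.0493 and Sox5 KO at 0.348 ± 0.0153.

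Type V collagen, a minor component inside type I fibrils that sets their diameter, was measured through its 3 chains. Col5a1 stood at 372 and 360.03 CPM in WT, while Xap5 KO had 660.1, 651 and 680.4, Nono KO 1068, 1064 and 1214 and Sox5 KO 499.6, 479.99 and 496. Col5a2 stood at 193 and 186 CPM in WT, while Xap5 KO had 700.2, 694 and 705, Nono KO 1325, 1299 and 1499.8 and Sox5 KO 513, 498 and 525. Both were higher in all knockout libraries than in WT, in the same order with Nono KO highest, Xap5 KO next and Sox5 KO after it. The log2 fold changes of Col5a1 were 0.86, 1.61 and 0.43 for the Xap5, Nono and Sox5 knockouts, and those of Col5a2 were 1.88 (SE 0.067, adjusted p = 2.94e-15), 2.86 (SE 0.070, adjusted p = 7.4e-18) and 1.43 (SE 0.066, adjusted p = 9.91e-14). Because Col5a2 gained more, the ratio of Col5a1 to Col5a2 per kilobase was 1.52 ± 0.00349 in WT, with Xap5 KO at 0.748 ± 0.0118, Nono KO at 0.639 ± 0.00526 and Sox5 KO at 0.757 ± 0.011. The less common chain gene Col5a3 (ENSMUSG00000004098) behaved otherwise and stood at 21.4 and 21.1 CPM in WT, while Xap5 KO had 2.73, 1.83 and 3.32, Nono KO 109.96, 113 and 109 and Sox5 KO 29.3, 25.4 and 25.7. It lay below WT in all Xap5 KO libraries and above it in all Nono KO libraries, where the mean was 5.21-fold that of WT. Its log2 fold change was -3.02 (SE 0.14, adjusted p = 2.49e-12) in Xap5 KO, 2.38 (SE 0.13, adjusted p = 1.74e-11) in Nono KO and 0.34 (SE 0.12, adjusted p = 0.0256) in Sox5 KO. The call in Sox5 KO is lost without either WT library or without Sox5 KO replicate 1 (adjusted p = 0.0996, 0.124 and 0.102) and with library totals in place of TMM scaling (0.142).

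Among the fibrillar collagens best known from cartilage, Col11a1 and Col2a1 each fell to the floor of detection in a different knockout, while Col11a2 was called in none. Col11a1 (ENSMUSG00000027966), the chain of type XI collagen that nucleates cartilage fibrils, stood at 2.26 and 1.45 CPM in WT, while Xap5 KO had 15.4, 17.3 and 17.8, Nono KO 63.02, 61.01 and 67.5 and Sox5 KO 0, 0 and 0. Sox5 KO held no count in any library, Xap5 KO and Nono KO lay above WT, and no groups overlapped. Its log2 fold change was 3.19 (SE 0.16, adjusted p = 6.54e-12) in Xap5 KO and 5.11 (SE 0.17, adjusted p = 7.33e-15) in Nono KO, and in Sox5 KO it was at least 19.2-fold lower, against a floor of 3 counts per library. Col2a1, the chain of type II collagen, had another order, with 0.992 and 1.52 CPM in WT, while Xap5 KO had 0.0772, 0 and 0, Nono KO 0.0494, 0.828 and 0.0552 and Sox5 KO 11.3, 10.3 and 11.96. Sox5 KO was the highest group here and Xap5 KO held at most 3 counts in every library. For Sox5 KO, the log2 fold change of Col2a1 was 3.15 (SE 0.79, adjusted p = 0.00731), which loses its call without WT replicate 1 (2.87, adjusted p = 0.0632), and Xap5 KO was lower than WT by at least 16.6-fold. In Nono KO its log2 fold change was -1.97 (SE 0.85, adjusted p = 0.0884), with the second library standing above the other two, which held 2 counts each. Without that library Nono KO is at the floor of 3 counts, Col2a1 is called (adjusted p = 3.34e-06), and the fold is a bound of at least 16.0-fold lower. Col11a2, which encodes the partner chain of Col11a1, did not pass the test in any knockout, with log2 fold changes of 0.56, 0.31 and 0.31. The 6 chondrocyte markers summed to 340 to 343 CPM in WT and 95.8 to 209 CPM in the knockouts, nearly all from Sox9.

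Col27a1, a chain of short-helix fibrils, was lower in Xap5 KO (-0.75 on the log2 scale) and Sox5 KO (-0.45), and in Nono KO its value was -0.06 with no call. Col24a1 was near the limit of detection, with 0.844 and 0 CPM in WT, while Xap5 KO had 0.412, 0.365 and 0.232, Nono KO 0, 0 and 0 and Sox5 KO 0.124, 0.508 and 0.383. It was at 0 in Nono KO, at least 5.503-fold lower than WT, but one of the WT libraries was at 0 too, and without WT replicate 1 the log2 fold change was 0.00 with an adjusted p of 1. Over the 11 fibrillar members, 4 were higher and 4 lower in Xap5 KO, 7 and 1 in Nono KO, and 7 and 2 in Sox5 KO. Their median log2 fold change was 0.05, 1.69 and 0.43 in that order. Of all tested genes, 23.2% were called higher and 22.3% lower in Xap5 KO, and 23.5% and 25.1% in Nono KO. In Sox5 KO these shares were 30.6% and 30.3%.

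The upstream sequence is shown for Col3a1, Col5a3 and Col11a1, fibrillar genes that differed widely between the knockouts. It is the 250 bases before the start in RefSeq, 5′ to 3′ along the gene. Col2a1 also differed widely but had no window. Capitals mark matches, on either strand, of 4 motifs: the TATA box (TATAAA), the CCAAT box (CCAAT), the GC box (GGGCGG) and AACAAT, the core sequence that Sox proteins bind. Positions are on GRCm38.p6: Col3a1 at chr1:45311288-45311537 on the plus strand, Col5a3 at chr9:20815068-20815317 on the minus strand and Col11a1 at chr3:114030290-114030539 on the plus strand.
Col3a1: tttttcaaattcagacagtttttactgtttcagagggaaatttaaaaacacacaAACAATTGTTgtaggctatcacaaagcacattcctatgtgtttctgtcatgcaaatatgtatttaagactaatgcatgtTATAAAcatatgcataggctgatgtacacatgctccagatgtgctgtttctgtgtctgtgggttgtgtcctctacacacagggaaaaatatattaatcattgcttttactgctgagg
Col5a3: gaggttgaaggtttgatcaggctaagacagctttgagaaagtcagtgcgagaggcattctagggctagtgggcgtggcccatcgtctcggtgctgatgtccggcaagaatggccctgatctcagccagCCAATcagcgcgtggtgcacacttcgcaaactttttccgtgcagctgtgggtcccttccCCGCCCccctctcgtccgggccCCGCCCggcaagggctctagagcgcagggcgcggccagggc
Col11a1: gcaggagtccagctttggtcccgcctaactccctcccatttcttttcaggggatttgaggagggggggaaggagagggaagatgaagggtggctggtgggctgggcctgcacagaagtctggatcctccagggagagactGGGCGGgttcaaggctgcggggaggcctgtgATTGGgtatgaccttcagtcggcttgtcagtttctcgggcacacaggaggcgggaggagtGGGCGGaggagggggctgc
Col3a1 holds a TATA box from 117 bases before the start and 2 AACAAT matches, from 196 and 192 bases before it, which lie on opposite strands and share bases. Col5a3 holds a CCAAT box and 2 GC boxes, and Col11a1 likewise a CCAAT box and 2 GC boxes. Windows were found for 35 of the 44 members, with 38 windows in all; Col1a1, Col2a1 and Col5a2 were among those without one. Of these, 2.63% (1 window, that of Col3a1) held AACAAT, against 9.42% of 32851 windows of all genes. The GC box was in 57.9% of collagen windows and 32.7% of all, at a median GC content of 59% and 52.4%. The CCAAT box was in 34.2% and 33.8%, and the TATA box in 13.2% and 12.4%. The 4 motifs do not contain one another, and a match is a description of letters only.

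In the basement membrane class, the pair Col4a1 and Col4a2 rose in all 3 knockouts, and the pair Col4a5 and Col4a6 fell in all 3. Col4a1 and Col4a2 encode the common type IV network of most basement membranes. Col4a1 stood at 288 and 289 CPM in WT, while Xap5 KO had 657, 634 and 684, Nono KO 639.7, 678 and 689 and Sox5 KO 738, 731 and 747. Col4a2 stood at 199 and 207 CPM in WT, while Xap5 KO had 479, 434 and 463, Nono KO 458, 493 and 497 and Sox5 KO 434, 435 and 443. Each knockout library lay above both WT libraries, and the 3 knockouts lay within a narrow band. The log2 fold changes of Col4a1 were 1.19 (SE 0.058, adjusted p = 6.36e-13), 1.21 (SE 0.058, adjusted p = 3.29e-13) and 1.36 (SE 0.059, adjusted p = 4.36e-14) for the Xap5, Nono and Sox5 knockouts, and those of Col4a2 were 1.18, 1.25 and 1.11. The ratio of Col4a1 to Col4a2 per kilobase was 1.39 ± 0.0342 in WT, with Xap5 KO at 1.401 ± 0.0548, Nono KO at 1.35 ± 0.0104 and Sox5 KO at 1.65 ± 0.00905.

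Col4a5 and Col4a6 encode chains of the type IV networks found in kidney and smooth muscle basement membranes. Col4a5 stood at 305 and 299.6 CPM in WT, while Xap5 KO had 249.8, 267 and 279.7, Nono KO 225, 213 and 238 and Sox5 KO 208, 206 and 224. Col4a6, described here because its values stood out once seen, was at 482 and 494 CPM in WT, while Xap5 KO had 236, 254 and 235, Nono KO 146, 151 and 153 and Sox5 KO 127, 135 and 135. Col4a6 was lower in every knockout library than in WT without overlap, and Col4a5 showed the same direction in smaller steps. The log2 fold changes of Col4a6 were -1.01 (SE 0.057, adjusted p = 5.14e-12), -1.70 (SE 0.057, adjusted p = 9.17e-16) and -1.88 (SE 0.057, adjusted p = 1.47e-16) for the Xap5, Nono and Sox5 knockouts. Those of Col4a5 were -0.19 (SE 0.064, adjusted p = 0.0202), -0.42 (SE 0.063, adjusted p = 1.06e-05) and -0.51 (SE 0.064, adjusted p = 5.54e-07), of which the call in Xap5 KO is lost without either WT library (adjusted p = 0.097 and 0.0661) or without Xap5 KO replicate 1 (0.0603). Col4a5 relative to Col4a1 per kilobase was 1.06 ± 0.0163 in WT, with Xap5 KO at 0.408 ± 0.0212, Nono KO at 0.341 ± 0.0203 and Sox5 KO at 0.291 ± 0.0106. In each knockout the rise of Col4a1 made up more of this change than the fall of Col4a5, on the log2 scale. Col4a6 relative to Col4a5 was 1.59 ± 0.0482, 0.897 ± 0.0605, 0.656 ± 0.0369 and 0.614 ± 0.0284 in the same order. Col4a3 and Col4a4 were under 1 CPM on average in every group. Col4a3 stood at 0.223 and 0.5901 CPM in WT, while Xap5 KO had 0.412, 0.462 and 0.1803, Nono KO 0.222, 0.146 and 0.497 and Sox5 KO 0.155, 0 and 0. It was called lower in Sox5 KO, at -2.87 (SE 1.23, adjusted p = 0.0498), a call next to the threshold, and without WT replicate 2 it was -2.02 (adjusted p = 0.318). Over the 6 members of the class, 2 were higher and 2 lower in Xap5 KO and in Nono KO, and 2 higher and 3 lower in Sox5 KO. The shares of all tested genes called higher and lower were 23.2% and 22.3% in Xap5 KO and 23.5% and 25.1% in Nono KO. For Sox5 KO they were 30.6% and 30.3%.

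**Figure D4:**
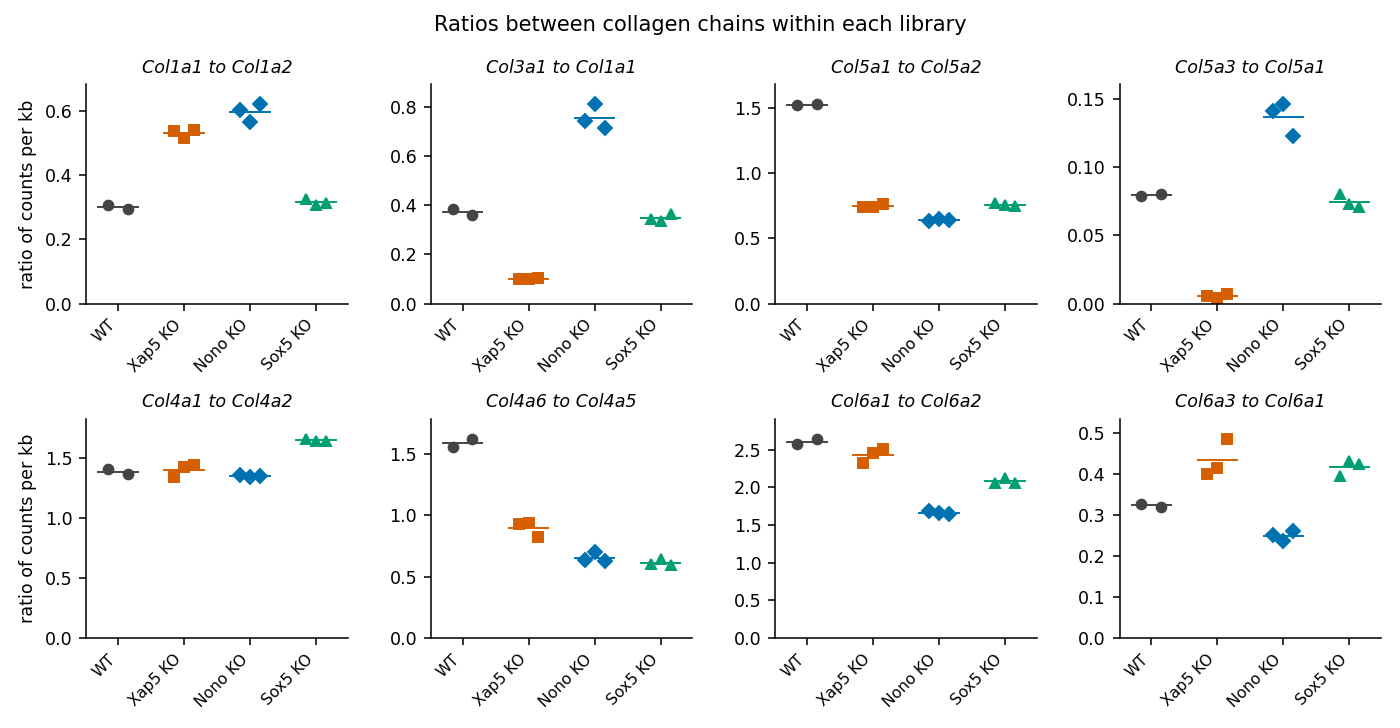
Ratio of counts per kilobase between 8 pairs of collagen chains in each library, with the group mean as a line; each axis starts at 0. Col5a1 to Col5a2 and Col4a6 to Col4a5 are lower in every knockout library than in WT, Col1a1 to Col1a2 is raised in Xap5 KO and Nono KO, and Col3a1 to Col1a1 falls in Xap5 KO and rises in Nono KO.

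For the ratios, 10 pairs of chains were compared with WT in 3 knockouts each, 30 tests in all. None could pass a threshold of 0.05, as the smallest exact permutation p is 0.2, so the ratios stand as values with their spread.

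Among the FACITs, Col12a1 stood apart. It encodes type XII collagen, which links fibrils and is abundant in tendon and other loaded connective tissue. Col12a1 stood at 46.2 and 43.7 CPM in WT, while Xap5 KO had 66.7, 65.8 and 80.2, Nono KO 848, 878 and 948 and Sox5 KO 400.0, 443 and 432. No groups overlapped, and the order was Nono KO, Sox5 KO, Xap5 KO and WT. Its log2 fold change was 0.66 (SE 0.081, adjusted p = 1.04e-06) in Xap5 KO, 4.31 (SE 0.093, adjusted p = 2.37e-18) in Nono KO and 3.24 (SE 0.089, adjusted p = 4.42e-17) in Sox5 KO. Col16a1, another FACIT found at the surface of fibrils and near cells, had the highest level of the class per kilobase over the 4 groups and stood at 634 and 613 CPM in WT, while Xap5 KO had 286, 285 and 298, Nono KO 619, 669 and 693 and Sox5 KO 281, 269 and 276. Xap5 KO and Sox5 KO lay below WT, at -1.11 (SE 0.058, adjusted p = 1.66e-12) and -1.18 (SE 0.058, adjusted p = 2.5e-13), and Nono KO was at 0.08 (SE 0.058, adjusted p = 0.256) with no call. In Nono KO, Col16a1 passed the test after correction for length and GC content (0.28, adjusted p = 8.47e-05). Col9a3, a chain of the cartilage FACIT type IX, was low and went down in Xap5 KO (-0.76) and up in Sox5 KO (0.77), with -0.04 and no call in Nono KO. Col20a1 was called higher in Sox5 KO (0.36) and not called in Xap5 KO (-0.09) or Nono KO (0.33). Col14a1 and Col22a1 were called in none of the 3 comparisons. Over the 6 tested FACITs, 1 was higher and 2 lower in Xap5 KO, 1 was higher and 5 were not called in Nono KO, and 3 were higher and 1 lower in Sox5 KO. The shares of all tested genes called higher and lower were 23.2% and 22.3% in Xap5 KO and 23.5% and 25.1% in Nono KO. For Sox5 KO they were 30.6% and 30.3%.

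Type VI collagen, the beaded filament around fibroblasts, was lower in Xap5 KO and Sox5 KO than in WT in all 3 main chains, except that Col6a3 in Sox5 KO turned under a correction for length and GC content. Col6a1 stood at 1493 and 1483 CPM in WT, while Xap5 KO had 731, 703 and 677, Nono KO 2016, 2151 and 2089.5 and Sox5 KO 885, 935 and 911. Col6a2 stood at 695 and 673 CPM in WT, while Xap5 KO had 377, 344 and 324, Nono KO 1433, 1554 and 1521 and Sox5 KO 516, 529 and 529.8. Col6a3, the longest chain, stood at 1206 and 1173 CPM in WT, while Xap5 KO had 722, 718 and 811, Nono KO 1249, 1255 and 1352 and Sox5 KO 861, 995 and 955. In all 3 genes the Xap5 KO libraries were the lowest, followed by Sox5 KO, and only Nono KO reached or passed WT. The log2 fold changes were -1.08 (SE 0.057, adjusted p = 2.04e-12), 0.49 (SE 0.058, adjusted p = 5.41e-07) and -0.71 (SE 0.057, adjusted p = 7.36e-10) for Col6a1 across the Xap5, Nono and Sox5 knockouts. They were -0.97, 1.14 and -0.38 for Col6a2 and -0.66, 0.11 (no call) and -0.34 for Col6a3. Under that correction, Col6a3 in Sox5 KO stood at 0.30 (adjusted p = 0.000166). Col6a3 in Nono KO was called with that correction (0.21, adjusted p = 0.00561) and in a fit of only Nono KO and WT (0.13, adjusted p = 0.037). Per kilobase, Col6a1 relative to Col6a2 was 2.61 ± 0.0472 in WT, with Xap5 KO at 2.43 ± 0.0949, Nono KO at 1.66 ± 0.0202 and Sox5 KO at 2.08 ± 0.0358. The minor chain gene Col6a5 was at 0 and 0 CPM in WT, while Xap5 KO had 0.154, 0 and 0, Nono KO 0, 0.122 and 0 and Sox5 KO 0.711, 0.644 and 1.15, and the mean of Sox5 KO exceeds WT by at least 11.7-fold. Col6a5 passed the filter on expression only through the Sox5 KO libraries, so its higher level there is a description and not independent of the filter.

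Among the network and multiplexin collagens, 3 genes changed by large factors. Col15a1 (ENSMUSG00000028339), which encodes type XV collagen of the basement membrane zone, stood at 40.9 and 42.9 CPM in WT, while Xap5 KO had 0, 0.438 and 0, Nono KO 0.0987, 0 and 0.331 and Sox5 KO 43.9, 39.04 and 45.7. It was close to 0 in Xap5 KO and Nono KO, and WT and Sox5 KO overlapped. Its log2 fold change was -8.08 (SE 0.64, adjusted p = 2.24e-05) in Xap5 KO, -8.23 (SE 0.65, adjusted p = 1.87e-05) in Nono KO and 0.03 (SE 0.39, adjusted p = 0.951) in Sox5 KO. Col8a1, a short-chain network collagen of vessel walls and the cornea, was likewise chosen after its values were seen and stood at 33.1 and 38.2 CPM in WT, while Xap5 KO had 179.6, 185 and 183, Nono KO 350.1, 358 and 307 and Sox5 KO 51.3, 52.3 and 57.2. All knockout libraries lay above WT, by 2.36 (SE 0.081, adjusted p = 1.6e-15) in Xap5 KO, 3.25 (SE 0.084, adjusted p = 1.36e-17) in Nono KO and 0.59 (SE 0.077, adjusted p = 1.12e-06) in Sox5 KO on the log2 scale. Col10a1, the short-chain collagen of hypertrophic cartilage, was at 0.918 and 0.704 CPM in WT, while Xap5 KO had 1.31, 1.27 and 1.39, Nono KO 3.75, 3.51 and 4.11 and Sox5 KO 0, 0.0678 and 0. Like Col11a1, it was highest in Nono KO and at or next to 0 in Sox5 KO: it was 2.22 (SE 0.46, adjusted p = 0.000361) in Nono KO, 0.71 (SE 0.44, adjusted p = 0.207) with no call in Xap5 KO, and lower by at least 8.38-fold in Sox5 KO.

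The upstream windows of Col15a1 and Col10a1 are shown because the genes were nearly silent in different knockouts, the first at chr4:47207762-47208011 on the plus strand and the second at chr10:34389731-34389980 on the plus strand (RefSeq, GRCm38.p6, capitals as above).
Col15a1: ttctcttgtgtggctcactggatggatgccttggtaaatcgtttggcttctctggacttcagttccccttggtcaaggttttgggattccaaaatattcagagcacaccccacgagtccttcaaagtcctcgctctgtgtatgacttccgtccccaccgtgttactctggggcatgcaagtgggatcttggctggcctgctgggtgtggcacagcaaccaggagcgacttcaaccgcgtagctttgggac
Col10a1: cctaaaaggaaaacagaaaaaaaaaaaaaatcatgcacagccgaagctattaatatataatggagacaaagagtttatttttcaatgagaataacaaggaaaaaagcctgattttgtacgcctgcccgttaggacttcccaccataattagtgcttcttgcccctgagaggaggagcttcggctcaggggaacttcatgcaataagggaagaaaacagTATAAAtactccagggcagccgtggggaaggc
Col10a1 holds a TATA box from 32 bases before the start, and the Col15a1 window holds none of the 4 motifs.

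The remaining members were low. Col28a1, a collagen with von Willebrand domains known from peripheral nerve, stood at 2.903 and 1.04 CPM in WT, while Xap5 KO had 0.103, 0.316 and 0, Nono KO 2.02, 2.05 and 2.18 and Sox5 KO 0.309, 0.474 and 0.351. It was lower in Xap5 KO, at -3.77 (SE 0.74, adjusted p = 0.000272), and in Sox5 KO, at -2.37 (SE 0.69, adjusted p = 0.00527), and 0.08 with no call in Nono KO. Without WT replicate 1 the call in Sox5 KO was lost (-1.47, adjusted p = 0.165). The transmembrane collagen gene Col23a1 stood at 0.844 and 0.136 CPM in WT, while Xap5 KO had 0, 0.0487 and 0.0515, Nono KO 0, 0 and 0 and Sox5 KO 0.247, 0.203 and 0.5103. Relative to WT, where the libraries differed from each other, it was lower by at least 6.46-fold in Xap5 KO and 6.39-fold in Nono KO, and both calls are lost without WT replicate 1 (adjusted p = 0.467 and 0.0849). Col17a1, the collagen of hemidesmosomes, was lower in Xap5 KO (-0.92) and Sox5 KO (-1.06), and Col18a1, the precursor of endostatin, was higher in Sox5 KO (0.70). Col7a1, of the anchoring fibrils of skin, and Col8a2 were called in no comparison with WT. Over the 13 tested genes of this class, 1 was higher and 7 lower in Xap5 KO, 4 and 2 in Nono KO, and 3 and 6 in Sox5 KO. Of all tested genes, 23.2% were called higher and 22.3% lower in Xap5 KO, and 23.5% and 25.1% in Nono KO. In Sox5 KO these shares were 30.6% and 30.3%.

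The 3 comparisons share the 2 WT libraries. Called higher than WT in all 3 knockouts were 7 members, Col1a1, Col4a1, Col4a2, Col5a1, Col5a2, Col8a1 and Col12a1, where 8.33% of all tested genes were. Called lower in all 3 were 2, Col4a5 and Col4a6, where 7.61% of all tested genes were.

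The knockouts were also compared with each other, which does not use the WT means. Against Nono KO, Xap5 KO had 3 members higher and 20 lower, with 27.1% and 25.9% of all tested genes. Against Sox5 KO, Xap5 KO had 8 higher and 16 lower, with 31.1% and 30.4% of all genes, and Nono KO had 21 higher and 7 lower, with 30.9% and 32.6%. Called higher in Nono KO than in each of the other 3 groups were 12 members (8.71% of all genes): Col1a1, Col1a2, Col3a1, Col5a1, Col5a2, Col5a3, Col6a1, Col6a2, Col8a1, Col10a1, Col11a1 and Col12a1. One member, Col24a1, was lower there than in each other group (9.39%). Its call against WT rests on WT replicate 1, as WT replicate 2 was at 0 too. Xap5 KO was called lower than each other group for 7 members (6.68%), Col3a1, Col5a3, Col6a1, Col6a2, Col6a3, Col9a3 and Col27a1, and higher for 0 (6.65%); unadjusted p-values under 0.05 in edgeR's test and adjusted ones in DESeq2 also gave 0. Sox5 KO was called higher than each other group for 4 members (16.8%), Col2a1, Col4a1, Col6a5 and Col9a3, and lower for 3 (16.4%), Col4a6, Col10a1 and Col11a1. Of these, the Col2a1 call against WT is lost without WT replicate 1. Col6a5 passed the filter on expression only through Sox5 KO, so its place among them is not independent of the filter.

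Several collagen genes lie side by side, and in RefSeq's gene order 8 pairs are neighbours, of which 5 had both genes tested. Over the 3 comparisons with WT these 5 pairs give 15 cases, and in 11 both genes were called in the same direction. The background was all 9647 neighbouring pairs of tested protein-coding genes, or 28941 cases. Both genes were called in the same direction in 5524 of them (19.1%) and in opposite directions in 2636 (9.11%). In the rest at least 1 gene was not called, so these shares also depend on how many genes were called. The 3 comparisons share the WT libraries. The 11 cases were Col4a1 with Col4a2, Col4a5 with Col4a6 and Col6a1 with Col6a2 in all 3 knockouts, and Col3a1 with Col5a2 in Nono KO and Sox5 KO. Of these, Col4a5 with Col4a6 in Xap5 KO rests on a Col4a5 call that was lost without either WT library or without Xap5 KO replicate 1 (adjusted p = 0.0603 to 0.097). In 1 case the neighbours were called in opposite directions: in Xap5 KO, Col3a1 was at -1.003 and Col5a2 at 1.88 on the log2 scale. The exons of Col4a1 and Col4a2 overlap each other, and the handling of strand is not given in the sources used here.

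The genes that modify, export, process, crosslink, degrade and bind collagen were read from a list of 56, of which 51 passed the filter. In Xap5 KO, 17 were higher and 19 lower, where 23.2% and 22.3% of all tested genes were. In Nono KO there were 31 and 5 (23.5% and 25.1% of all), and in Sox5 KO 25 and 14 (30.6% and 30.3%). The median log2 fold change was 0.05, 0.48 and 0.24, beside 0.00, -0.02 and -0.01 over all tested genes. Of the 19 tested genes for modification and folding in the endoplasmic reticulum, such as the prolyl hydroxylases that stabilise the triple helix, 7 were higher and 5 lower in Xap5 KO, 16 were higher and 3 not called in Nono KO, and 15 were higher and 3 lower in Sox5 KO. Of the 4 tested crosslinking enzymes of the lysyl oxidase family, 2 were higher and 1 lower in Xap5 KO, and in Nono KO and in Sox5 KO 3 were higher and 1 was not called. Of the 8 receptors and uptake genes, 3 were higher and 3 lower in Xap5 KO, 5 and 1 in Nono KO, and 1 and 2 in Sox5 KO. The other roles did not all rise. In the same order, the 4 export genes had 0 and 2, 3 and 0, and 2 and 2. The 5 tested propeptide processing genes had 2 and 3, 2 and 2, and 3 and 2. The 5 collagenases had 2 and 2, 2 and 0, and 1 and 2. The 6 transcription factors of collagen genes had 1 and 3, 0 and 2, and 0 and 3.

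From that list, the called genes with the largest fitted changes are described; the ranking used fitted values also for genes at the floor, so it is not an order of supported size. In Xap5 KO it passed over Mmp9 (log2 fold change -2.61) and Adamts14 (-2.55), and in Nono KO Creb3l1 (2.25) and Adamts2 (2.17). The crosslinking enzyme gene Lox was also left out, at 1.53 in Xap5 KO, 1.58 in Nono KO and 0.07 with no call in Sox5 KO. These genes were added here after their values were seen. P3h2, a prolyl 3-hydroxylase acting on type IV and other collagens, stood at 6.62 and 6.35 CPM in WT, while Xap5 KO had 7.23, 8.32 and 7.93, Nono KO 10.7, 11.3 and 11.8 and Sox5 KO 0.804, 0.441 and 0.766. The Sox5 KO libraries lay far below all others, at -3.26 (SE 0.22, adjusted p = 5.99e-11) against WT on the log2 scale. Tll1, a protease that trims fibrillar procollagens, stood at 0.248 and 0.477 CPM in WT, while Xap5 KO had 0, 0 and 0.0515, Nono KO 0, 0.244 and 0.1105 and Sox5 KO 0, 0 and 0. Relative to WT it was lower by at least 4.78-fold in Xap5 KO and 3.75-fold in Sox5 KO, from a low level. Tll1 passed the filter on expression only through the WT libraries, where it was highest, so these differences are not independent of the filter. The neutrophil collagenase gene Mmp8 stood at 0 and 0 CPM in WT, while Xap5 KO had 1.39, 0.487 and 0.541, Nono KO 0, 0.974 and 0.525 and Sox5 KO 0, 0.0678 and 0. It was at or under 3 counts in WT and in Sox5 KO, and at least 11.3-fold higher than WT in Xap5 KO and 7.01-fold higher in Nono KO.

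Of the collagen-binding integrin genes on the list, Itga1, Itga2 and Itga11 also differed between the knockouts. Itga10 was called in no comparison with WT, with log2 fold changes of -0.84, 0.16 and -0.79 for the Xap5, Nono and Sox5 knockouts. Itga1 stood at 0.868 and 0.204 CPM in WT, while Xap5 KO had 6.64, 6.91 and 8.27, Nono KO 19.8, 19.2 and 16.4 and Sox5 KO 0.588, 0.576 and 0.447. Xap5 KO and Nono KO lay above WT, at 3.78 (SE 0.34, adjusted p = 2.89e-08) and 5.12 (SE 0.34, adjusted p = 3.56e-10) on the log2 scale, and Sox5 KO was at 0.03 with no call. Itga2 stood at 3.08 and 2.56 CPM in WT, while Xap5 KO had 0, 0 and 0, Nono KO 0.345, 0.244 and 0.801 and Sox5 KO 0, 0 and 0.223. All knockouts lay below WT, by at least 37.2-fold in Xap5 KO, and at -2.61 in Nono KO and -5.17 in Sox5 KO on the log2 scale. Itga11 stood at 8.76 and 9.67 CPM in WT, while Xap5 KO had 7.21, 6.43 and 8.604, Nono KO 42.6, 49.9 and 47.1 and Sox5 KO 43.6, 47.1 and 44.2. Nono KO and Sox5 KO lay above WT without overlap, at 2.33 (SE 0.12, adjusted p = 1.07e-12) and 2.29 (SE 0.12, adjusted p = 9.29e-13), and Xap5 KO was called lower, at -0.32 (SE 0.12, adjusted p = 0.0369).

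Among the transcription factors known for the cartilage collagen genes, Sox9 stood at 339.6 and 342 CPM in WT, while Xap5 KO had 153, 136 and 141, Nono KO 192, 209 and 181 and Sox5 KO 107, 95.5 and 116. It was lower in all 3 knockouts, with log2 fold changes of -1.25, -0.81 and -1.68 for the Xap5, Nono and Sox5 knockouts. Sox5 stood at 49.7 and 45.9 CPM in WT, while Xap5 KO had 14.2, 15.02 and 11.9, Nono KO 7.01, 7.57 and 8.75 and Sox5 KO 12.6, 13.9 and 13.9. It was lower in all 3 knockouts, at -1.80, -2.62 and -1.83. Sox6 stood at 0.0496 and 0 CPM in WT, while Xap5 KO had 0.309, 0.682 and 0.541, Nono KO 0.0494, 0 and 0 and Sox5 KO 0.0618, 0 and 0. It was at or under 3 counts in every library of WT, Nono KO and Sox5 KO and at least 7.16-fold higher than WT in Xap5 KO. Sox6 passed the filter on expression only through the Xap5 KO libraries, so this difference is not independent of the filter.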

How the data were processed

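The deposited values were one table of whole-number counts per gene for 11 libraries. They were treated as estimated counts rounded by the authors before they were deposited, and they entered the fits as they were. The value 1 occurs 857 times, 2 occurs 3302, 3 occurs 1767 and 4 occurs 2121 times, and separate counting of paired mates could also leave such an excess of even values. The sources used here do not settle this; if mates were counted, the floor of 3 counts stands for fewer fragments, and each bound on a fold rests on fewer molecules. The submitters' processing notes name HISAT2 2.1.0, StringTie 1.3.3b and DESeq2 1.12.4 and the builds GRCm39 and mm39, with no role or order. Per the labels' protocols, TRIzol served for RNA extraction and a NEBNext Ultra II kit for the libraries. Transcript lengths came from GENCODE M21, matched by gene ID for all 44 members, and CPM per kilobase uses the longest transcript.

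All 11 libraries entered a single edgeR 4.0.16 fit in R 4.3.3 (TMM scaling, 1 mean per group, robust quasi-likelihood F test). The filter asked for a minimum count of 10 with a total of at least 15 and kept 13332 genes. A low gene could pass it through the libraries of 1 group alone, and a call that sets that group high is then not independent of the filter. P-values were adjusted by Benjamini-Hochberg over all of these, and genes were called under 0.05. The SE of a log2 fold change was worked back from the test, as its absolute value over the square root of F, and is not a fitted standard error. Where no library of a group exceeded 3 counts for a gene, the group was set to 3 counts per library and the fold is a bound; this covers counting error only. CPM values in every library are given for the 12 members highest per kilobase, for the 6 called members with the largest fitted changes in each comparison with WT (floor genes included), and for members at the floor in one group with over 10 counts in every library of another. From the list of 56 collagen pathway genes, the 4 largest called changes per comparison and the 3 Sox genes are given. The members and lists were chosen with earlier results of these data known. Alternatives were another scaling, no filter and a stricter one, DESeq2 1.42.0, a length and GC offset, a replicate block, only the groups compared, and each library left out.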

Additional observations from a re-analysis of the deposited data

Results flagged for a closer look

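For 8 members, 2 knockouts were called in opposite directions against WT and were also called different from each other in edgeR's quasi-likelihood test, in 13 cases. The log2 differences between Xap5 KO and Nono KO were -1.57 for Col6a1 (adjusted p = 1.54e-15), -2.11 for Col6a2 (1.36e-16), -4.70 for Col3a1 (4.99e-16) and -5.40 for Col5a3 (4.27e-16). In Col6a1 and Col6a2 the same split separated Nono KO from Sox5 KO, by 1.20 (adjusted p = 3.72e-14) and 1.52 (4.98e-15).

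Between Xap5 KO and Sox5 KO, Col3a1 differed by -1.61 (adjusted p = 4.57e-11), Col5a3 by -3.36 (1.37e-13) and Col9a3 by -1.53 (1.89e-05). Against WT, Col5a3 was at 0.34 in Sox5 KO, a call that some alternatives lose.

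The other 4 cases involve a group at the floor of 3 counts, and their fitted values are not bounds. They were Col2a1 between Xap5 KO and Sox5 KO (-8.62, adjusted p = 9.36e-05), Col11a1 between Xap5 KO and Sox5 KO (12.31, 2.25e-15) and between Nono KO and Sox5 KO (14.23, 1.77e-17), and Col10a1 between Nono KO and Sox5 KO (7.25, 2.01e-09). Against 3 counts per library, Xap5 KO was lower than Sox5 KO by at least 148-fold for Col2a1. Relative to Sox5 KO, Col11a1 was higher by at least 174-fold in Xap5 KO and 660.1-fold in Nono KO, and Col10a1 by at least 39.2-fold in Nono KO. Samples were not tested for outliers, as no group has more than 3 libraries.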

How the results depend on the processing

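Over 23 alternatives, 69 fold changes of named collagen genes gave 1428 values, of which 1392 kept their direction and their side of the threshold, 28 were no longer called, 6 were newly called and 2 were reversed; the changes touched 12 of the 69. Both reversals were Col6a3 in Sox5 KO, at 0.30 with the length and GC offset and 0.28 with that offset and the replicate block. Of 252 counts of called members, 247 stayed within 1.5 times. With a minimum count of 50, which tests 28 members, Nono KO had 3 lower than WT in place of 5 and 4 lower than Sox5 KO in place of 7. With only the groups compared, Nono KO had 3 lower than WT. With the length and GC offset, Xap5 KO had 5 higher than Sox5 KO in place of 8, and 4 with the replicate block added. The replicate numbers do not pair the samples: same-numbered libraries correlated between -0.0226 and 0.0465 in their deviations, under 0.1 in all 15 pairs. With the replicate block, Col4a3 in Sox5 KO (-2.90, adjusted p = 0.0921) and Col23a1 in Xap5 KO (-3.88, adjusted p = 0.0648) were no longer called. On TMM-scaled library sizes the collagen share was 1.08% in WT, with Xap5 KO at 1.098%, Nono KO at 3.35% and Sox5 KO at 1.32%, which turns the order of WT and Xap5 KO. Without Col1a1, Col1a2 and Col3a1, WT stood at 0.647%, Xap5 KO at 0.557%, Nono KO at 1.05% and Sox5 KO at 0.573%. With library totals in place of TMM factors, the median gene stood at -0.18 for Nono KO against WT and -0.12 for Sox5 KO against WT. The cause of these changes was not tested. Depth limits the members under 1 CPM, whose calls rest on few counts.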
